A study of Mus musculus with 4 samples.

Results

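The stefin A genes Stfa1, Stfa2, Stfa2l1 and Stfa3, chosen by symbol, were 4 of the 24441 genes in the deposited table of skin RNA. They were picked with the GSDMD KO against WT difference of Stfa2l1 in view, so that this difference is described here for all 4 genes without a test. RNA came from skin of GSDMD KO mice and WT mice, with 2 libraries each. All mice were female C57BL/6 animals, labelled as 8 weeks old, and all had been given subcutaneous bleomycin (BLM), used to induce local skin fibrosis, every other day until day 28. The KO line had been made by injecting Cas9 mRNA and a guide RNA into C57BL/6 fertilized eggs, so the deletion was not limited to 1 cell type. No saline-treated library was part of the comparison, and whether KO and WT mice were littermates is not stated.

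Stefins are small intracellular inhibitors of the cysteine protease class to which most cathepsins belong. They sit in the active site cleft of the protease and block it reversibly. Humans have a single stefin A gene, also called cystatin A, whereas mice carry a cluster of copies. In skin, stefin A is known as a protein of keratinocytes that is built into the cornified envelope, and several mouse copies are known as transcripts of neutrophils and other myeloid cells.

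The 4 genes lay within 299 kb of chromosome 16 (mm9). Each had 3 exons. Stfa2l1 occupied chr16:36156897-36162034 on the plus strand and Stfa1 chr16:36277234-36285457 on the same strand. Stfa2, at chr16:36404032-36408449, and Stfa3, at chr16:36450623-36455478, lay on the minus strand. The coding sequences of Stfa2l1 and Stfa2 were compared base by base because these copies were the closest pair among the 4 genes and had different profiles over the libraries. Bases 56 to 262 of the 312 are shown 5′ to 3′ from the GENCODE transcripts of mm9, and capitals in Stfa2 mark the 6 bases that differ, all of which lie in this stretch.
Stfa2l1: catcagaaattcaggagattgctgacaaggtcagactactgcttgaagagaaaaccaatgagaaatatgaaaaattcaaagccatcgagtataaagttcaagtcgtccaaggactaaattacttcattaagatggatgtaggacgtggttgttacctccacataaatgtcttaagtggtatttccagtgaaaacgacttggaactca
Stfa2: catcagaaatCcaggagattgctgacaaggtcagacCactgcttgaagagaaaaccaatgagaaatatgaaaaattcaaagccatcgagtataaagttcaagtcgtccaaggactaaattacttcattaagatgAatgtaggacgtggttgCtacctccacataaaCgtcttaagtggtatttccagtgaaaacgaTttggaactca
The pair was thus 98.1% identical in coding sequence. Stfa3 was 81.7% identical to Stfa2l1 over 312 bases, and Stfa1 77.2% identical over 294 bases. The longest exact run that the Stfa2l1 transcript shared with another transcript of the locus was 97 bases, with Stfa2. Words of 75 bases were shared in 7.94% of positions of Stfa2l1, 5.79% of Stfa2, 15.9% of Stfa1 and 0% of Stfa3. Words of 150 bases were shared in 0% of positions for each of the 4 genes. The read length is not given in the sources used here. Reads that match more than 1 copy can be divided between copies by the counting, so values of near-identical genes are uncertain to that extent.

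The sequences before the start sites are given because the genes had like promoters, while the profile of Stfa2l1 was unlike those of the other genes. They are the RefSeq sequences (GRCm38.p6), each found once on chromosome 16 of mm9 by exact match, and are written 5′ to 3′ on the strand of the gene. Capitals mark the hexamer TTTAAA, which resembles the TATA box. Bases inside a GENCODE exon were left out, which removed 21 bases of Stfa1 and 94 bases of Stfa2 next to the start site, among them the TTTAAA of Stfa2.
Stfa2l1, plus strand, chr16:36156647-36156896: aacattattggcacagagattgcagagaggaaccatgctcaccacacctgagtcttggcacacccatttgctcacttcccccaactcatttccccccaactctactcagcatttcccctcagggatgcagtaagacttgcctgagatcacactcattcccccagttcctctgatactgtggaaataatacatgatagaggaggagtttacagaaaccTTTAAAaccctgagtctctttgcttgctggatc
Stfa2, minus strand, chr16:36408544-36408699: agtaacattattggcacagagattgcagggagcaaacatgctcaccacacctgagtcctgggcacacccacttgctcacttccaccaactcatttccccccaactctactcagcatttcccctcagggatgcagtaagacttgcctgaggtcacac
Stfa3, minus strand, chr16:36455479-36455728: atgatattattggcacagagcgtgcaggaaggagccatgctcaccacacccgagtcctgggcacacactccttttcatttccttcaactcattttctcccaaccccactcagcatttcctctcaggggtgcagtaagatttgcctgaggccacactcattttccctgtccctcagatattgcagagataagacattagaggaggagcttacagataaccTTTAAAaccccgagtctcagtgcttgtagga
Stfa1, plus strand, chr16:36276984-36277212: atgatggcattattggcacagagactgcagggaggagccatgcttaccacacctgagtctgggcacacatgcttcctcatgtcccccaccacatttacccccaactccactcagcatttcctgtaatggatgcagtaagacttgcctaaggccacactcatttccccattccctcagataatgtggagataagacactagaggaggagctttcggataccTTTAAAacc
Over the full 250 bases the Stfa2l1 and Stfa2 promoters were 91.9% identical in the aligned part, against 81.3% for Stfa2l1 and Stfa3 and 82.6% for Stfa2l1 and Stfa1. TTTAAA began 29 to 33 bases before the start site in 4 of 4 genes. Of the 32851 RefSeq promoter windows of this length, 12.1% hold it at any position on either strand. Because the 4 genes are copies with like promoters, matches shared by them, here and below, are not independent. The core of the PU.1 motif, GAGGAA, was found in 4 of 4 genes on either strand, against 23.3% of all windows. Stfa2l1 held it at 2 positions, beginning 224 and 86 bases before the start site, and each of the other genes at 1. The match of Stfa2, beginning 82 bases before the start site, lies in the exon bases left out of the sequence shown. The C/EBP-like pattern TTGCNNAA was found in Stfa1, against 9.56% of windows. The TATA box TATAAA (12.4% of windows), the AP-1 pattern TGANTCA (6.75%) and the STAT pattern TTCNNNGAA (7.02%) were found in 0 of 4 genes. No matches of different patterns overlap in the 4 genes.

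Values were FPKM, fragments scaled to transcript length and to the mapped total, so levels of different genes could be compared per length. Stfa2l1 stood at 16.1 and 12.9 FPKM in WT libraries, compared with 1.25 and 1.81 FPKM in KO libraries. Both KO libraries were far below both WT libraries, which differed by a factor of 1.25. Means were 14.5 ± 2.32 (WT) and 1.53 ± 0.392 FPKM (KO; SD, n = 2 per group), 9.47-fold lower in KO. On the log2(FPKM + 1) scale, which understates changes of low genes, the KO minus WT difference was -2.61. From the step that 1 fragment makes in low genes, about 117 and 76.2 fragments stood behind the WT values and about 7.14 and 9.52 behind the KO values. The KO level is therefore known only roughly.

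Stfa3 was the most abundant of the 4 genes in every library. It had 464 and 125 FPKM in WT libraries, compared with 764 and 1004 FPKM in KO libraries. Both KO libraries lay above both WT libraries, but the WT libraries differed 3.72-fold. Means were 295 ± 240.1 (WT) and 884 ± 169 FPKM (KO; SD, n = 2 per group), and the difference in log2(FPKM + 1) was 1.86. The difference was 0.91 without WT replicate 2 and 2.80 without WT replicate 1.

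Stfa1 had 175 and 39.8 FPKM in WT libraries, compared with 156 and 132 FPKM in KO libraries. The KO libraries lay between the WT libraries. The log2 difference was 0.77, smaller than the SD of 1.49 between the WT libraries on the same scale, and it was -0.29 without WT replicate 2 and 1.82 without WT replicate 1. Stfa2 had 102 and 20.9 in WT against 128 and 56.9 FPKM in KO. The groups overlapped here too, with a log2 difference of 0.86 against an SD of 1.58 in WT and 0.82 in KO, and it was -0.26 without WT replicate 2, 1.98 without WT replicate 1, 0.28 without KO replicate 1 and 1.44 without KO replicate 2. For neither gene was the direction of a KO against WT difference determined by these libraries.

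**Figure D1:**
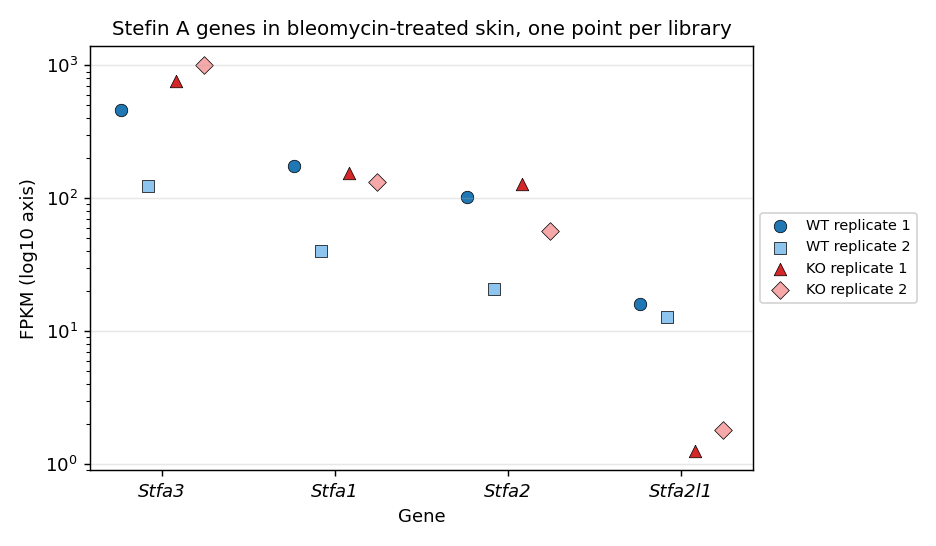
FPKM of the 4 stefin A genes on a log10 axis, 1 point per library (circles and squares for WT replicates 1 and 2, triangles and diamonds for KO replicates 1 and 2). Stfa2l1 is near 13 to 16 FPKM in WT and near 1.3 to 1.8 FPKM in KO, whereas Stfa1, Stfa2 and Stfa3 are lowest in WT replicate 2.

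The order of the levels was Stfa3, Stfa1, Stfa2, Stfa2l1 in each of the 4 libraries. Stfa3 exceeded Stfa1 by a factor of 2.66 and 3.13 in WT and 4.90 and 7.63 in KO. Stfa1 exceeded Stfa2 by 1.21- to 2.31-fold within a library, while across libraries the ranges of these neighbours overlapped. Stfa2 exceeded Stfa2l1 by 6.34- and 1.62-fold in WT and by 102- and 31.5-fold in KO. Stfa2l1 accordingly made up 2.13% and 6.49% of the summed FPKM of the 4 genes in WT, and 0.120% and 0.151% in KO. The sum itself, 758 and 198 in WT against 1049.6 and 1194 FPKM in KO, was carried by Stfa3, which held 61.3% to 84.1% of it.

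The difference between the WT libraries was large for Stfa1, Stfa2 and Stfa3. Gaps in log2(FPKM + 1) at least as wide as those of these genes, 2.11, 2.24 and 1.89, were seen between the WT libraries in 0.330%, 0.253% and 0.568% of the 13027 genes tested, where the median gap was 0.28. For Stfa2l1 the gap was 0.31. Between the KO libraries, Stfa2 had the widest gap of the 4 genes, 1.16. The plot of centred levels by library shows that the members differed in profile: Stfa1, Stfa2 and Stfa3 shared the low value in WT replicate 2, while Stfa2l1 was high in both WT libraries.

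The table listed 7 further genes at the locus, of which 6 matched an annotated protein-coding gene. Csta1, the cystatin A ortholog at the left end of the cluster, had 22.9 and 4.96 in WT against 36.2 and 15.8 FPKM in KO, overlapping between groups. Stefin copy BC100530, whose coding sequence was 98.0% identical to that of Stfa1, had 748 and 182 in WT against 1219 and 1369 FPKM in KO. It was thus the most abundant gene of the stefin A locus in every library. BC117090 was lower, at 3.73 and 2.24 in WT against 12.1 and 9.78 FPKM in KO, with both KO libraries above both WT libraries.

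Gm5483, which lies next to Stfa2l1, was the tested locus gene closest to it in profile. It had 28.5 and 16.2 in WT against 1.26 and 5.003 FPKM in KO, with a log2 difference of -2.61 (limma: standard error 0.55, Benjamini-Hochberg adjusted p = 0.248), and did not pass the threshold. 2010005H15Rik, 96.9% identical to Gm5483 in coding sequence, stood at 0.803 and 2.80 in WT against 0.244 and 0.132 FPKM in KO, where about 1.16 and 0.581 fragments are estimated. Gm5416 was at 13.7 and 6.67 FPKM in WT, at 8.39 FPKM in KO replicate 1 and listed at 0 in KO replicate 2. Gm6815 reached at most 0.0824 FPKM. In the plot of the locus, the tested genes with a negative difference neighbour each other on the plus strand.

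**Figure D2:**
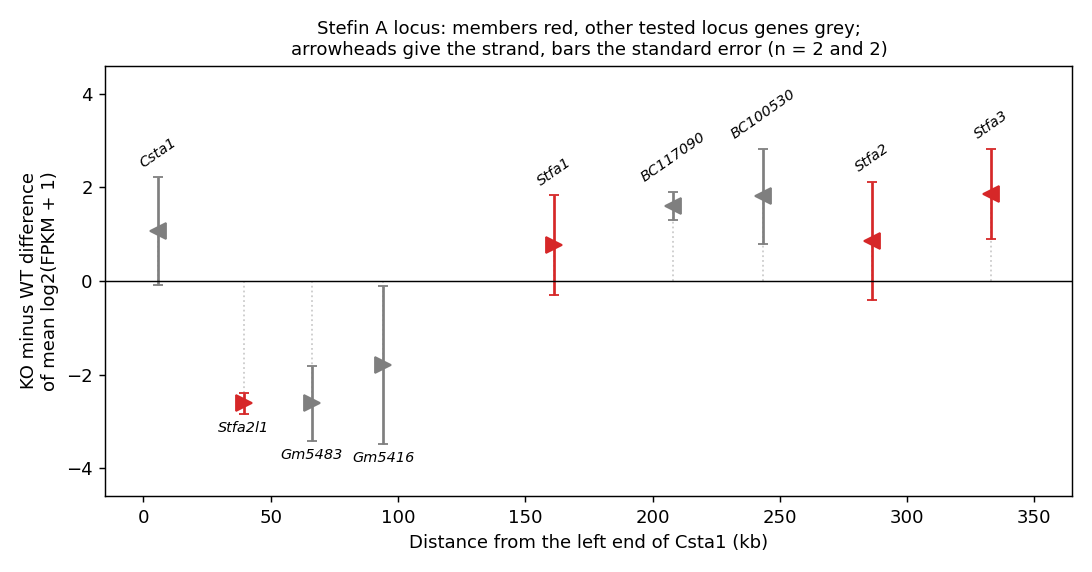
KO minus WT difference of mean log2(FPKM + 1) for the 9 tested genes of the locus against the distance in kb from the left end of Csta1, with standard errors (n = 2 and 2). Stfa2l1 (-2.61), Gm5483 (-2.61) and Gm5416 (-1.79) lie below 0 and Stfa1, BC117090, BC100530, Stfa2, Stfa3 and Csta1 above 0, and arrowheads give the strand.

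A gap with every KO value under every WT value was seen in 20.5% of the 13027 tested genes, and the opposite order in 35.3%, so separated groups were common. Of the 4 stefins, 1 was below (Stfa2l1), 1 was above (Stfa3) and 2 overlapped. Since the choice of genes used this contrast, nothing is read from these counts. With the threshold of adjusted p 0.05 plus a log2 difference beyond 1 in size, limma called 0% of tested genes in either direction. At an unadjusted p under 0.05 it found 2230 genes (17.1%), and with the same difference required 6.16% of genes higher and 4.14% lower in KO. An exact two-sided permutation test of 1 gene with 2 libraries per group cannot give a p below 0.333.

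The profiles most like each stefin over the 4 libraries were found by the root mean square difference of centred log2 values among all tested genes. For Stfa2l1 these were Ccl3, a chemokine of activated myeloid cells (0.27), the cytokine gene Osm (0.31), Acod1, which encodes the itaconate-producing enzyme of activated macrophages (0.31), the interferon-inducible Tgtp2 (0.32) and Clec4e, the receptor Mincle (0.37). Ccl3, for example, had 31.3 and 23.7 in WT against 1.62 and 3.49 FPKM in KO. Stfa2l1 was picked for its fall in KO, so its closest genes are bound to share that fall. Nothing is read from them about the cells that express Stfa2l1. For Stfa3 the closest was Spink5, which encodes the epidermal kallikrein inhibitor LEKTI, with a difference of 0.040 and 16.2, 3.93, 28.5 and 38.9 FPKM in WT replicates 1 and 2 and KO replicates 1 and 2. BC100530 (0.099), Gsdmc, a gasdermin gene (0.17), Defb14, a beta-defensin gene (0.17), and Gramd1c (0.17) followed.

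Stfa2 was closest to Csta1 (0.13), Gm94 (0.22), the wound keratin Krt6a (0.22), the kallikrein Klk7 (0.30) and Stx19 (0.31). Stfa1 was closest to Ppp1r3a, a glycogen-targeting phosphatase subunit of muscle (0.23), followed by Riiad1 (0.28), Gm7334 (0.28), Stx19 (0.30) and Hist1h2ag (0.31). Stfa2 was at rank 10 among 13026 genes for Stfa1. Stfa2l1 was among the least similar, at rank 12833. With 4 libraries these likenesses are descriptions, because many genes share a profile.

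**Figure D3:**
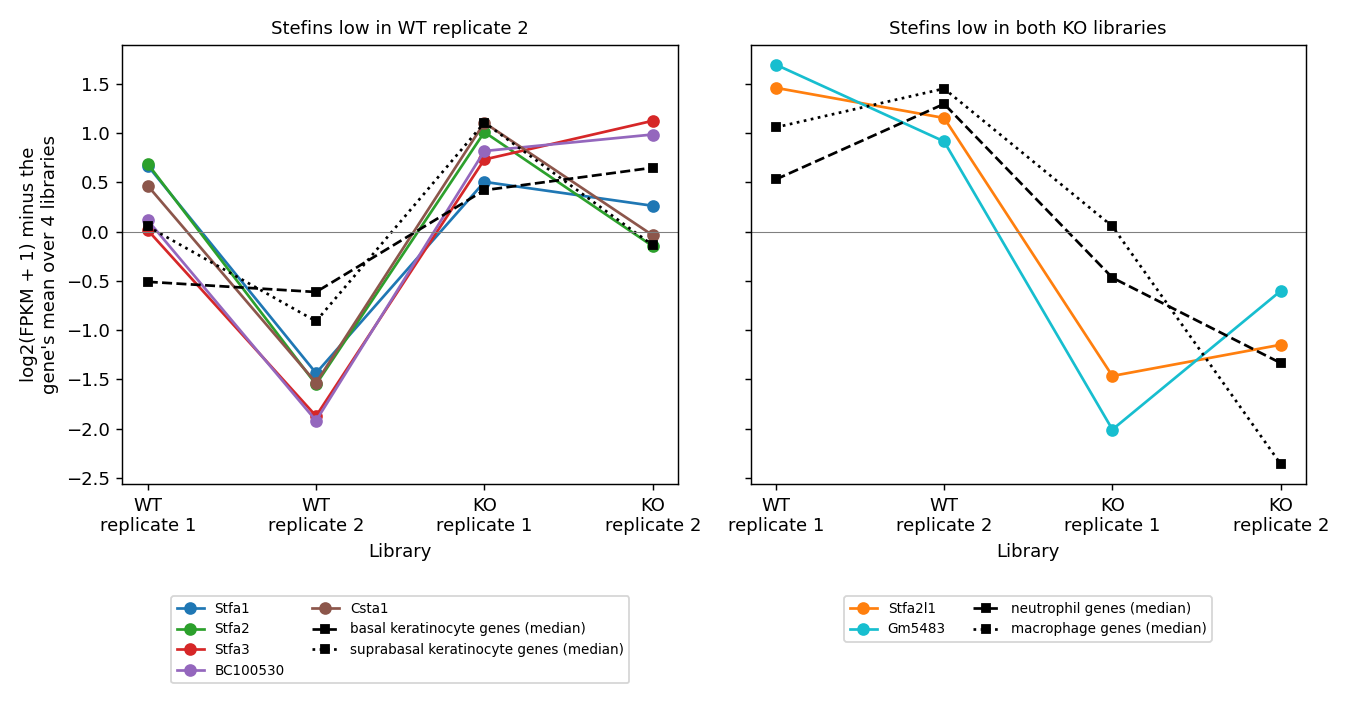
log2(FPKM + 1) minus the mean of each gene over the 4 libraries, for stefins (coloured) and for medians of marker lists (black), with lines only joining points of 1 gene. On the left Stfa1, Stfa2, Stfa3, BC100530 and Csta1 are lowest in WT replicate 2, and on the right Stfa2l1 and Gm5483 are below 0 in both KO libraries.

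Since skin holds many cell types, a lower value in bulk RNA cannot be told apart as fewer cells of a type or less RNA per cell. Basal keratinocyte genes had higher values in KO mice, with 0 calls. Both KO libraries lay above both WT libraries in 8 of 8 basal keratinocyte genes (35.3% of all tested genes), and their summed level was 2297 and 2204 in WT against 4856 and 5328 FPKM in KO. Krt14, a keratin of the basal layer, had 1293 and 1215 FPKM in WT, so the WT libraries hardly differed in it while Stfa1, Stfa2 and Stfa3 differed by over 3.7-fold. In KO it had 2689 and 2735 FPKM. Relative to Krt14, a ratio chosen after the values were seen, Stfa3 stood at 0.359 and 0.103 in WT and at 0.284 and 0.367 in KO. The groups overlapped in this ratio, and likewise for Stfa1 and Stfa2. Krt5 and Krt15, the other basal keratins among the highest in the list, also had higher values in KO. Krt5 was at 764 and 765 in WT against 1728 and 1664 FPKM in KO. Krt15 was at 128 and 118 in WT against 225 and 670.3 FPKM in KO, where the libraries differed widely.

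Of 9 suprabasal keratinocyte genes, 3 lay above in KO (35.3% of all tested genes) and 6 overlapped, and their summed level, 3685 and 2018 in WT against 7651 and 2771 FPKM in KO, was lowest in WT replicate 2. Krt10, a keratin of differentiating cells, had 745 and 364 in WT against 1669.8 and 266 FPKM in KO, and Krtdap and Dmkn were likewise lower in WT replicate 2 than in WT replicate 1. So was every other gene of the list, with wider gaps in Dsc1 (10.5 and 1.79 FPKM in WT) and Dsg1a (17.4 and 5.31 FPKM in WT). Relative to Krt10, a ratio also chosen after the values were seen, Stfa3 stood at 0.623 and 0.343 in WT and at 0.458 and 3.77 in KO. The groups overlapped in this ratio, and likewise for Stfa1 and Stfa2. Among 20 tested cornified envelope genes 19 overlapped and 1 was above (35.3% of all tested genes). Their median log2 difference was 0.13, against 0.11 for all tested genes. This median had no stable direction: it was -0.75 without KO replicate 1, 1.20 without KO replicate 2, 0.51 without WT replicate 1 and -0.20 without WT replicate 2. The most abundant of them, Lor, which encodes loricrin, had 1450 and 810 in WT against 2844 and 155 FPKM in KO. Stfa3 was thus highest in KO replicate 2, the library in which Lor was lowest. Lce1a1 and Lce1b, 2 late cornified envelope genes, were also lowest or near lowest in KO replicate 2, at 270 and 261 FPKM. Of 9 wound-induced epidermal genes 3 lay above in KO (35.3% of all tested genes) and 6 overlapped, and Krt16 had 410 and 165 in WT against 602 and 125 FPKM in KO. Krt17 had 360 and 201 in WT against 953 and 530 FPKM in KO. The part of keratinocyte number or layer in the stefin values was not tested.

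Most genes of the neutrophil and macrophage lists had lower values in KO mice, with 0 calls. In the neutrophil list, 12 of 15 tested genes had both KO libraries below both WT libraries (20.5% of all tested genes), 3 overlapped, and the median log2 difference was -1.91. The summed level of the list was 998 and 1813 in WT against 534 and 226 FPKM in KO. The neutrophil granule list had 1 of 7 genes tested and overlapped, with sums of 4.79 and 10.37 FPKM for WT and 10.7 and 1.97 FPKM for KO. Ly6g, which defines mouse neutrophils, was at 0.238 and 0.0928 FPKM in WT and listed at 0 in both KO libraries. S100a8, a calgranulin gene that inflamed keratinocytes also express, had 440 and 287 in WT against 151 and 107 FPKM in KO, S100a9 312 and 322 FPKM against 153 and 41.0 FPKM. Lcn2 overlapped between groups, at 121 and 1058 in WT against 139 and 36.9 FPKM in KO.

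Relative to S100a8, Stfa2l1 was at 0.0366 and 0.0448 in WT and 0.00833 and 0.0169 in KO. The KO values of this and the next ratios rest on fewer than 10 estimated fragments of Stfa2l1, whose low KO level was known when it was chosen, so nothing is read from them about cell number. Relative to S100a9 the groups overlapped, with 0.0517 and 0.0399 in WT and 0.00821 and 0.0441 in KO, and relative to the myeloid lectin gene Clec4d they overlapped as well, with 0.625 and 0.388 against 0.510 and 0.827. The same held for the granulocyte receptor gene Csf3r, with 4.07 and 1.79 against 0.658 and 12.0. These ratios were chosen after the values were seen. In the macrophage list 12 of 14 tested genes were below in both KO libraries (20.5% of all tested genes) and 2 overlapped, and its summed level was 2196 and 2292 in WT against 898 and 98.7 FPKM in KO. The part of myeloid cell number in the Stfa2l1 values was not tested.

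Libraries also differed in other tissue markers, in part along with the groups. Summed FPKM of adipocyte genes ran from 208 in KO replicate 2 to 4798 in WT replicate 2, and of fibroblast genes from 56.0 in KO replicate 2 to 538 in KO replicate 1. Endothelial genes summed to 82.9 and 125 in WT against 112 and 10.5 FPKM in KO, also lowest in KO replicate 2, and 8 of 8 overlapped. Hair follicle genes summed to 11.9 and 2.75 in WT against 373 and 23.7 FPKM in KO, where KO replicate 1 stood far above the rest. Both KO libraries lay above both WT libraries in 6 of 9 tested hair follicle genes (35.3% of all tested genes), and 3 overlapped. The median log2 difference of this list was 2.39, with 0 calls. Skeletal muscle genes summed to 21848 and 20499 FPKM for WT but 13336 and 13172 FPKM for KO. Both KO libraries were lower in 5 of 7 muscle genes (20.5% of all tested genes), and 2 overlapped. The part of these tissues in the stefin values was not tested. Gsdmd, the knocked-out gene, was at 14.0 and 18.2 in WT against 3.53 and 2.26 FPKM in KO, in the direction of the labels. Its log2 difference was -2.14 (adjusted p = 0.248 by limma), so even this gene was not called. A result of 0 calls therefore does not show that the genes of a list were unchanged. From low genes, 1 fragment on a transcript of 1 kb was worth 0.0572 to 0.0786 FPKM, which sets the depth.

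Most cysteine cathepsins, the family that stefins inhibit, and legumain, a protease of another family, had lower values in KO mice. Of 11 cysteine cathepsin and legumain genes, all tested, 7 had both KO libraries below both WT libraries (20.5% of all tested genes). In 1 gene they were above (35.3% of all tested genes), 3 overlapped, and 0 were called by limma. The median log2 difference of the list was -0.53, against 0.11 for all tested genes. Ctss, the cathepsin of antigen-presenting cells, had 429 and 367 in WT against 108 and 10.3 FPKM in KO, with a log2 difference of -3.50 (standard error 1.05, adjusted p = 0.248 by limma). Ctsz had 171 and 281 in WT against 93.7 and 29.8 FPKM in KO. Ctsb, a lysosomal cathepsin of most cells, had 231 and 372 in WT against 193 and 79.6 FPKM in KO. For Lgmn, the asparaginyl endopeptidase legumain, the values were 149 and 218 against 108 and 36.5 FPKM.

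The other cathepsins had smaller or mixed differences. Ctsl, which epidermal keratinocytes use, had 97.4 and 99.3 in WT against 103 and 26.6 FPKM in KO, and Ctsh had 64.9 and 64.7 against 53.0 and 37.5 FPKM. Ctsc, which activates serine proteases of granulocytes, had 22.4 and 20.4 against 17.5 and 12.1 FPKM, and Ctso 6.21 and 6.26 against 4.46 and 4.14 FPKM. Ctsk, the collagen-degrading cathepsin of osteoclasts and fibroblasts, varied widely between libraries, at 21.6 and 10.03 in WT against 38.3 and 3.07 FPKM in KO. Ctsf was the only gene of the list with a positive log2 difference and with both KO libraries above both WT libraries, at 13.4 and 13.5 in WT against 20.5 and 21.6 FPKM in KO (adjusted p = 0.280 by limma). Ctsw, of cytotoxic lymphocytes, ran from 0.484 to 1.35 FPKM. The median of the list rested largely on KO replicate 2: it was -0.28 without that library and -1.85 without KO replicate 1.

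**Figure D4:**
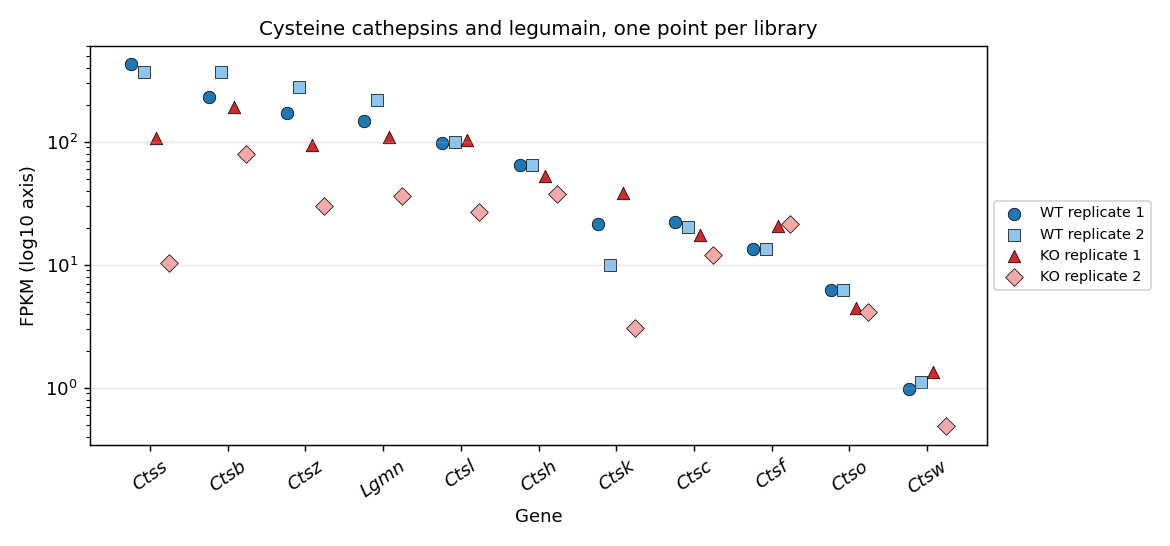
FPKM of 11 cysteine cathepsin and legumain genes on a log10 axis, 1 point per library, ordered by mean level. KO replicate 2 (diamonds) is the lowest library in 10 of the genes, and Ctsf alone has both KO libraries above both WT libraries.

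The other cystatins differed in both directions. The list had 16 genes, of which 4 were tested and 0 were called. Both KO libraries lay above both WT libraries in 2 of them (35.3% of all tested genes) and below in 1 (20.5%), and 1 overlapped. Cstb, which encodes stefin B, the ubiquitous relative of stefin A, had 381 and 284 in WT against 529 and 586 FPKM in KO (log2 difference 0.76, standard error 0.27, adjusted p = 0.275 by limma). Cst6, the cystatin M/E gene of the epidermis, had 101 and 69.9 in WT against 165 and 112 FPKM in KO. Cst3, the gene of the secreted cystatin C, had 801 and 979 in WT against 678 and 716 FPKM in KO, with both KO libraries lower, and Fetub overlapped at 2.09 to 4.23 FPKM. Stfa3 was expressed at 1.22 and 0.439 times the level of Cstb in WT and at 1.44 and 1.71 times in KO.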

How the data were processed

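Skin RNA of GSDMD KO and WT mice given BLM was analysed, with 2 libraries each. Per the labels, read alignment by the authors used HISAT2 version 2.0.1 and the mm9 build, and the labels also name StringTie version 2.0.6. The deposited table is named as counts but holds FPKM, in which the authors had already divided by length and depth: 99.993% of values above 0 are not whole. A count model was therefore not used, and the paper's DESeq2 test was not repeated. Start positions in the table count from 0 and are given here from 1.

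Values were transformed to log2(FPKM + 1) without scaling. A minimum of 1 FPKM in any 2 libraries kept 13027 genes. Their fit used limma (version 3.58.1, R version 4.3.3) and a genotype term alone, empirical Bayes moderation with a trend and Benjamini-Hochberg adjustment; calls required adjusted p below 0.05 plus a log2 difference beyond 1 in size. The fit was also run on simulated data in which all genes had the same spread, unlike these libraries. That run therefore does not show how well the fit finds differences here. Depth was estimated from the FPKM of 1 fragment in low genes with a single GENCODE transcript of at least 2 kb, and fragments per gene follow from it with the annotated transcript length. Both are rough estimates and carry no interval.

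The members and gene lists were chosen with earlier results of these data known. Named genes were the stefins, the other genes of the locus, cathepsins, expressed cystatins, the 3 most abundant tested genes of the neutrophil and keratinocyte lists and the 5 genes closest in profile to each stefin. Other genes named from lists (Ly6g, Csf3r, Clec4d, Dsc1, Dsg1a) and the ratios to listed genes were picked with values known. Libraries with equal numbers were not paired, since the sources tie no number to a litter or batch. Whether each library came from a separate mouse is not stated for these samples, so p-values measure only the spread between libraries, which may be technical.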

Additional observations from a re-analysis of the deposited data

How the results depend on the processing

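The alternatives were other pseudocounts, scalings and filters, leaving out each library, and the replicate number as a block. The Stfa2l1 difference was -3.17 with a pseudocount of 0.1 and -2.89 with 0.5, because the scale compresses low values less, and it ran from -2.77 to -2.46 when single libraries were left out. With no filter, which lets low genes in, the median of other cystatins changed sign from 0.31 to -0.030. Leaving out single libraries moved that median between 0.11 and 0.63, that of the cathepsins and legumain between -1.85 and -0.28 and that of the neutrophil list between -2.47 and -1.33. The difference changed sign without WT replicate 2 for Stfa1 (-0.29) and Stfa2 (-0.26). For Stfa3 it ran from 0.91 to 2.80 when single libraries were left out. Median-ratio scaling moved the median of all tested genes from 0.11 to 0.0085.

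The number of genes called was 0 and ran from 0 to 2058 when single libraries were left out, with 2058 without KO replicate 1 and 43 without KO replicate 2, where the lone KO library is assumed to vary like the WT libraries. With the replicate block 0 genes were called. Deviations of same-numbered libraries had a correlation of -0.20 over 13027 genes, and the crossed block, chosen after seeing the data, also called 0 genes. At an unadjusted p under 0.05 the blocks gave 1999 and 3052 genes. The depth limits Stfa2l1 in KO mice, where fewer than 10 fragments are estimated.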
